A study of Mus musculus with 13 samples.

Results

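OLIG2 is a basic helix-loop-helix transcription factor of the oligodendrocyte lineage, and RNA immunoprecipitation sequencing (RIP-Seq) was used to ask which transcripts came down with it. The sites described here are the wide ones found with the OLIG2 antibody only: sites of the OLIG2 list at least 10 bp long that shared no base on the same strand with any site of the IgG control list. They numbered 704, out of 4079 OLIG2 sites of at least 10 bp (17.3%) and 45157 OLIG2 sites in all. The same rule applied the other way gave 385 wide IgG-only sites, out of 3294 IgG sites of at least 10 bp (11.7%) and 37248 in all, and these served as the comparison. Since length and the absence of an IgG site chose the sites, neither is a finding about them.

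Each antibody had 1 library and no replicate, so no test between the antibodies was possible and every value below describes these 2 libraries. Both came from untreated mouse cells whose nuclei were crosslinked, lysed, sonicated and treated with DNase, with a rabbit antibody against OLIG2 or a rabbit IgG. The sample labels name the cells as newly formed oligodendrocytes of strain C57BL/6, while the growth protocol in the same labels and the study's methods describe cultured neural stem cells (NSCs) from E14.5 cortex of CD-1 mice. The control library is titled as RIP-Seq input in the labels, while its antibody label and the study's methods give a rabbit IgG. It was taken here as the IgG control, and every OLIG2-only site and every OLIG2 to IgG ratio below rests on that reading. The lists could not settle the cell type, because sites were listed on only 613 genes with OLIG2 and 618 with IgG. Of 12 NSC marker genes (Sox2, Nes and Pax6 among them) none had a site in either list, and of 16 oligodendrocyte lineage genes only Olig2 and Mbp did. Listed sites held 1075509 tags with OLIG2 and 1061581 with IgG, while the sequencing depth of the libraries is unknown.

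In a RIP experiment an antibody pulls a protein out of a lysate together with the RNA crosslinked to it, and a non-specific IgG shows which RNA is carried along without the protein. A site caller then marks stretches of a transcript where sequenced tags pile up beyond the level modelled for that transcript. A messenger RNA consists of a 5′ untranslated region (UTR), the coding sequence (CDS) and a 3′ UTR, and the 3′ UTR is the part where many RNA-binding proteins that govern stability and translation are known to bind. Basic helix-loop-helix factors are best known for binding DNA at the E-box, CANNTG.

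The 10 sites with the most tags all lay on the Olig2 transcript itself, and their sequences are shown because the listed tags of the antibodies were furthest apart there. They are given 5′ to 3′ on the plus strand of GRCm38.p6 (mm10) from RefSeq, in order of Tag_Count, the number of tags the caller assigned to the site. Capitals mark a CANNTG E-box, which 1 of the 10 held.
Olig2 3′ UTR, chr16:91228409-91228438: cctcccacacacacaccttttgccaccgtt
Olig2 3′ UTR, chr16:91227582-91227608: ctttggctgaacactccaagggtctgg
Olig2 3′ UTR, chr16:91228165-91228183: catCAATTGgtttcttacc
Olig2 3′ UTR, chr16:91228259-91228273: ttgagctttttggga
Olig2 5′ UTR, chr16:91226361-91226374: aagaaggatcattc
Olig2 5′ UTR, chr16:91225620-91225629: tcctccgcag
Olig2 3′ UTR, chr16:91227939-91227949: cctcctgttgt
Olig2 3′ UTR, chr16:91228056-91228065: tcccaaaagt
Olig2 3′ UTR, chr16:91227849-91227862: ccctggcccagggc
Olig2 3′ UTR, chr16:91228369-91228378: ccctccgtct

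Some of the top sites of other genes, picked for display after their values were seen, are shown to set the Olig2 sites against sites of other genes, each on the strand of its transcript. The Eif1ax, Galntl6 and Pcbp2 sites were 38, 38 and 39 bp long, and 30 bases of each are given. Prpf8 held the only E-box of those shown, and stretches from Agrn (235 tags), Prdx3 (152) and Dctn2 (115), which are not shown, held none. Pcbp2 is the IgG-only site with the most tags.
Eif1ax CDS, chrX:159376418-159376447, plus strand: gaatgaatctgaaaagcgagagcttgtgtt
Prpf8 CDS, chr11:75509167-75509181, plus strand: ctgCAGCTGgcaaac
Galntl6 intron, chr8:58294138-58294167, minus strand: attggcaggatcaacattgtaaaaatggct
Pcbp2 5′ UTR in the IgG list, chr15:102470773-102470802, plus strand: ccttttcccctcagtcgactcgcgcctcca

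In listed tags Olig2 stood apart from the other genes. Its transcript (ENSMUST00000035608, gene ENSMUSG00000039830.9, chr16:91225457-91228677, plus strand) has 2 exons, with 252 bases of 5′ UTR, 969 of CDS, 1309 of 3′ UTR and an intron of 691. The OLIG2 list held 42 sites with 24703 tags on it, and the IgG list 2 sites with 301 tags, a ratio of 82.1. This is a ratio of sums over sites called separately in each library and not a fold of RNA. The lowest height listed for the transcript was 119 with OLIG2 and 126 with IgG, against a median of 4 for the transcripts of the wide OLIG2-only sites, so lower IgG pile-ups on Olig2 are missing from its sum. At the 2 places listed in both libraries the height was 629 with OLIG2 and 175 with IgG, a ratio of 3.59, and 530 and 126, a ratio of 4.21.

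The 10 wide OLIG2-only sites on Olig2 were all of the wide OLIG2 sites of this gene. Those in the 3′ UTR had Tag_Counts of 2279, 2235, 1963, 1705, 1195, 847, 733 and 695, and those in the 5′ UTR 1552 and 1306. The lowest of the 10 was 2.11 times the highest wide OLIG2-only site of any other gene, while OLIG2 sites that met an IgG site reached 146631 tags. Maximum_Height, the deepest pile-up within a site, ran from 142 to 397, which is 1.13 to 3.15 times the lowest IgG height listed on the transcript. None of the 10 lay in the CDS or the intron.

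**Figure D1:**
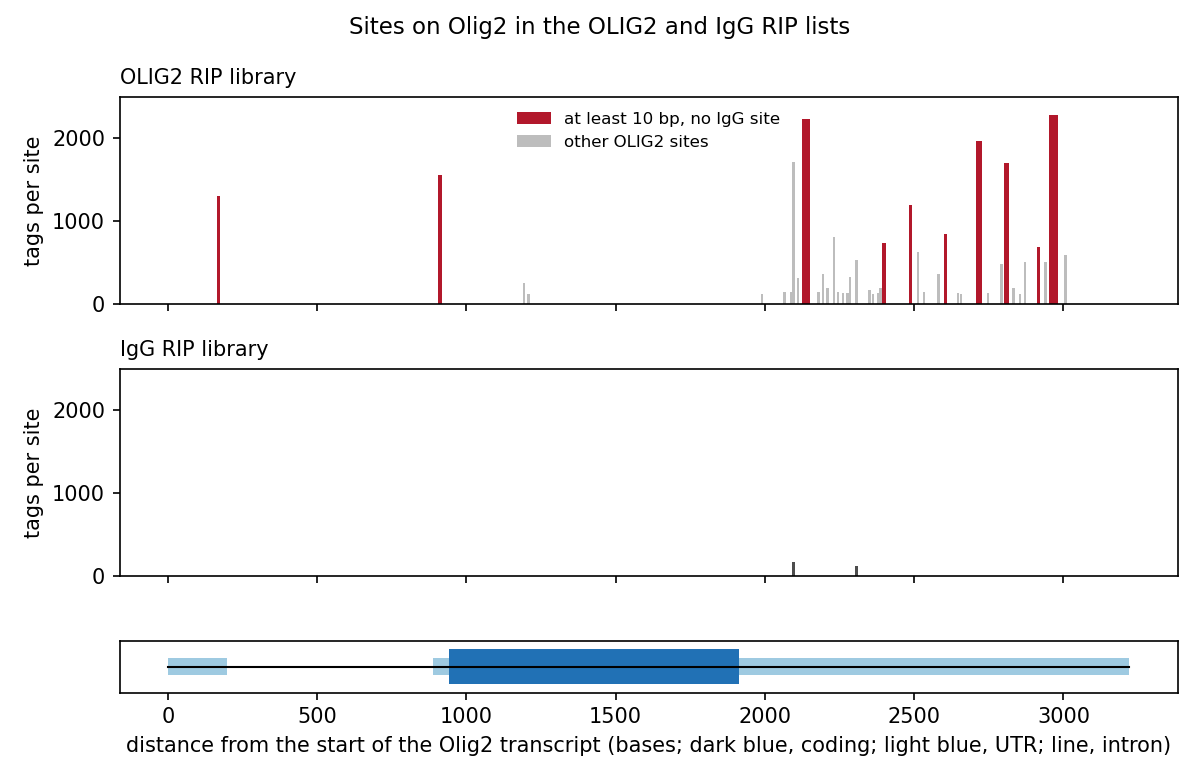
Tags per site (vertical, from 0) along the Olig2 transcript (horizontal, distance from its start in bases) in the OLIG2 and the IgG library, with the transcript drawn below. Of the 10 wide OLIG2-only sites, 8 sit in the 3′ UTR and 2 in the 5′ UTR, while IgG has 2 sites, of 175 and 126 tags.

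The remaining 32 OLIG2 sites on Olig2 were short or met an IgG site. Over all 42, the 3′ UTR held 38 sites and 21469 tags, the 5′ UTR 2 sites and 2858 tags, and the CDS 2 sites and 376 tags. No site was listed in the intron. Both IgG sites were 1 bp long and fell in the 3′ UTR, inside an OLIG2 site of 9 bp with 1717 tags and a 1-bp OLIG2 site with 530 tags. The absence of an IgG site is no measure of how few tags were there. Olig2 also had an RPKM of 91.2, the expression value the caller took from NSC RNA-Seq and gave identically in both lists. In a bulk lysate the number of cells holding this RNA and its amount per cell cannot be told apart.

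Beyond Olig2, the wide OLIG2-only sites were spread over many genes with similar tags in both libraries. They lay in 215 of the 613 listed genes (35.1%), and 69 of these genes held 1 such site. All 215 also had an IgG site somewhere along the gene, as did 582 of the 613 listed genes. A wide IgG-only site was held by 128 of the 215, and by 173 of the 618 genes of the IgG list. The 215 genes held more OLIG2 tags, at a median of 1387 against 122 in the other genes, and the part of this was not tested. Over the 582 genes in both lists the ratio of OLIG2 to IgG tags had a median of 0.93, and 15 genes (2.58%) were above 2. Over the 215 genes the median was 1.0 (quartiles 0.895 and 1.18), and 2 were above 2. These were Olig2 and 1110059G10Rik, which had 335 tags with OLIG2 and 154 with IgG, a ratio of 2.18.

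**Figure D2:**
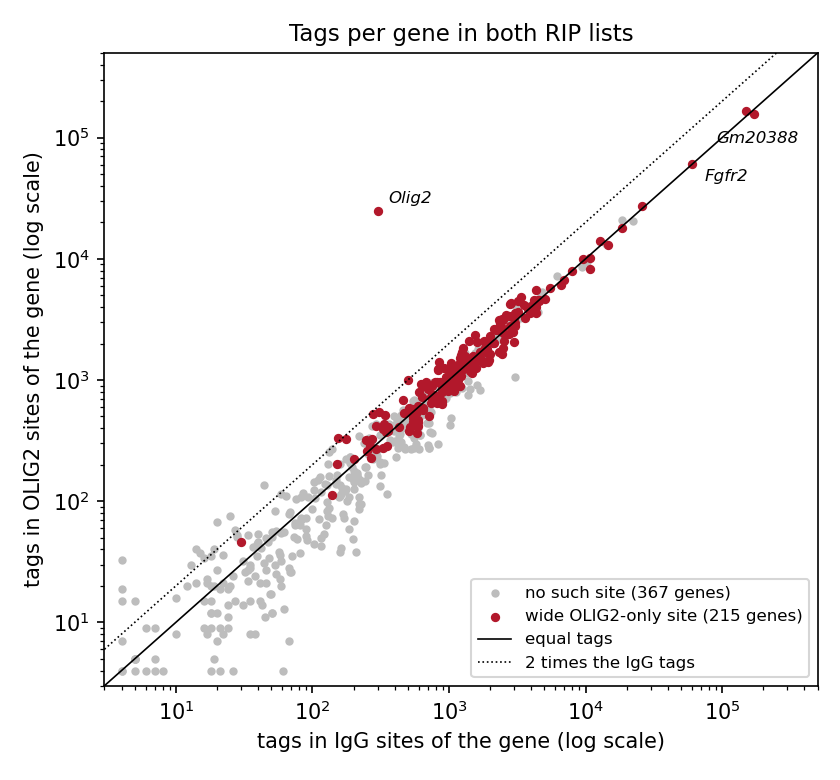
Tags summed over the sites of each gene in the IgG list (horizontal) and the OLIG2 list (vertical), both on log scales, for the 582 genes in both lists. Olig2 lies above the line of equal tags at 24703 against 301, where IgG pile-ups under a height of 126 were not listed, and the other 214 genes with a wide OLIG2-only site (red) lie close to that line.

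Most of these sites were neighbours of an IgG site. Of the 704, 659 (93.6%, 95% Clopper-Pearson interval 91.5 to 95.3) had a same-strand IgG site less than 50 bp away, 433 less than 10 bp away, and the median distance was 7 bp. The wide IgG-only sites mirrored this, with 366 of 385 (95.1%, 92.4 to 97.0) less than 50 bp from an OLIG2 site and a median of 5 bp. On Olig2, where no IgG pile-up under a height of 126 was listed, 9 of the 10 sites lay 50 bp or more from an IgG site, at distances up to 1919 bp. Distance rests on the same absence of IgG sites as the rule and is a description only. Outside Olig2, 658 of 694 had an IgG site nearer than 50 bp.

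**Figure D3:**
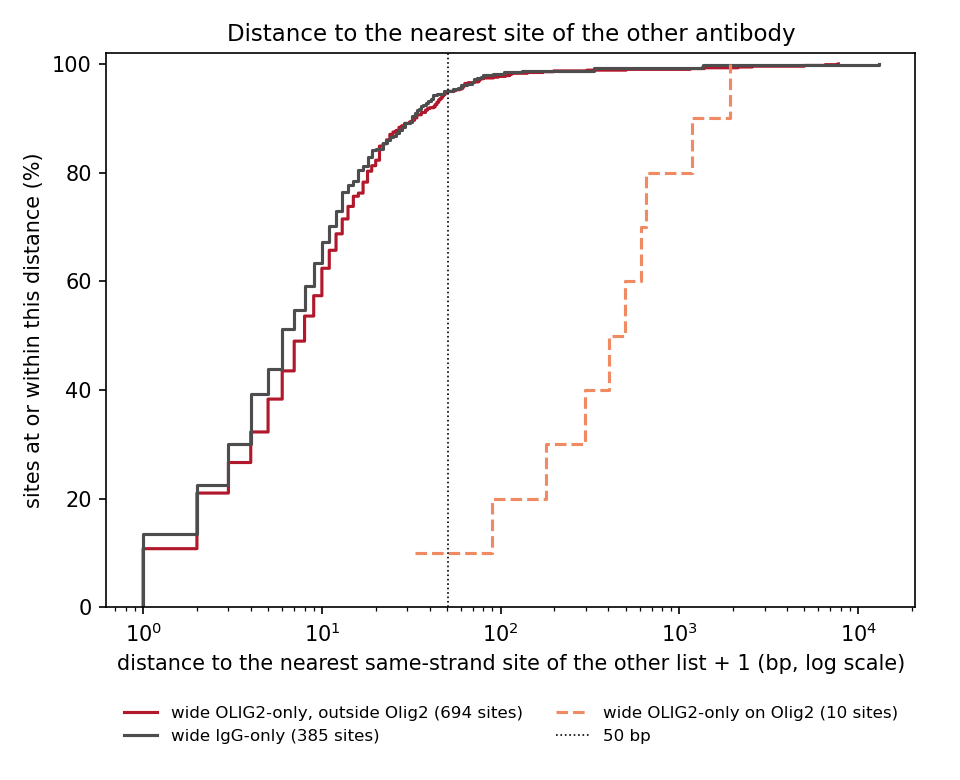
Share of sites (vertical, in percent) at or within a given distance to the nearest same-strand site of the other list (horizontal, distance plus 1 in bp, log scale). The curves for the 694 wide OLIG2-only sites outside Olig2 and the 385 wide IgG-only sites run together, and the 10 Olig2 sites lie to the right, at 32 to 1919 bp.

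Tags of both libraries were then summed over all sites within 50 bp of each site. Around the wide OLIG2-only sites the median was 69.5 tags with OLIG2 and 36 with IgG, and the ratio had a median of 1.76. Around the wide IgG-only sites it was 73 with IgG and 36 with OLIG2, a median ratio of 1.81. Both ratios leave out the sites with no listed tag of the other library within 50 bp, 45 OLIG2-only and 19 IgG-only. The shares that follow keep these sites. The rule itself puts the library's own site in its sum and leaves the other's out. OLIG2 sums were more than 2 times the IgG sums at 45.6% of the OLIG2-only sites, and IgG sums more than 2 times the OLIG2 sums at 49.6% of the IgG-only sites.

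Outside Olig2, 36 sites in 30 genes lay 50 bp or more from any IgG site, and they were low. The highest was 79 tags, in Tmem132d, and it lay in a stretch with many copies in the genome. Dscam, a cell adhesion molecule of neurons, had a CDS site of 68 tags with the nearest IgG site at 6557 bp. The CDS site of Parp8 had 23 tags and the greatest distance of all, 7752 bp. A site of 24 tags in the 3′ UTR of Stag1, a cohesin subunit, was 2122 bp away. Sites in Gm26573 (51 tags, 4995 bp) and Fgfr2 (37 tags, 2553 bp) were also farther away than that in Stag1. The genes named here were picked after the values were seen and by no fixed rule.

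Tag_Count was low in most wide OLIG2-only sites. The median was 28 (95% interval of the median 27 to 29, quartiles 22 and 37), and the range 12 to 2279. Without Olig2 the 694 sites had a median of 27 and a highest value of 330. Wide IgG-only sites had a median of 34 (32 to 36) and reached 334. Wide OLIG2 sites that did meet an IgG site, 3375 in number, had a median of 56. At this length limit the OLIG2-only sites ranked below both other sets. Their median length was 12.5 bp, against 12 bp in the IgG-only sites and 18 bp in the sites found with both. With a limit of 20 bp, 59 OLIG2-only sites had a median of 53 tags (47 to 64). The 24 IgG-only sites had 48 (44 to 65), so the order turned round but the intervals overlapped.

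**Figure D4:**
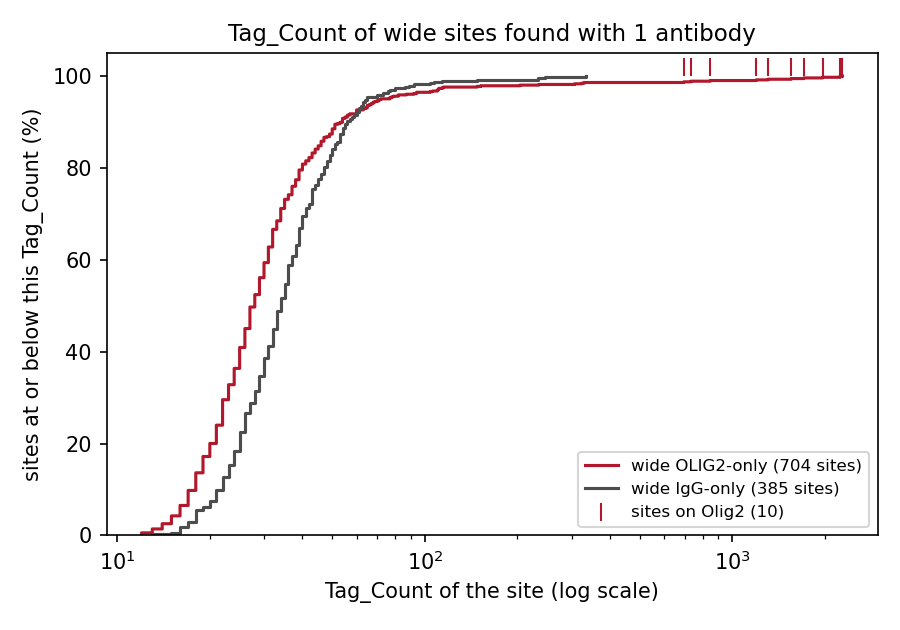
Share of sites (vertical, in percent) at or below a given Tag_Count (horizontal, log scale) for the 704 wide OLIG2-only and the 385 wide IgG-only sites, with ticks for the 10 sites on Olig2. The OLIG2-only curve lies to the left of the IgG-only curve over most of its height, and only Olig2 sites lie beyond 334.

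Sites also stood little above the lowest pile-up listed for their transcript. The ratio of Maximum_Height to that lowest height had a median of 2.25 (quartiles 1.75 and 3.00) in the wide OLIG2-only sites, and 298 of 704 were at 2 or less. In the wide IgG-only sites the median was 3.25 and 44 of 385 were at 2 or less. The lowest listed height was the same in both libraries for 1330 of the 1878 transcripts in both lists (70.8%). All 704 and all 385 had a site p-value below 0.01, the level at which the lists end.

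Together the 704 sites held 37769 tags, 3.51% of all tags in OLIG2 sites, and the 385 held 14944, 1.41% of all tags in IgG sites. Olig2 alone gave 14510 of the 37769 (38.4%). Counted once whatever the strand, the 704 sites were 681 places and the 385 were 377. All 1371 OLIG2 coordinates listed on both strands had the same Tag_Count on each, so the strand of a site is that of the annotated transcript and not a measured one.

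The gene after Olig2 in Tag_Count was Eif1ax, which encodes a translation initiation factor that helps the ribosome find the start codon. Its 3 sites had 330, 324 and 307 tags, and at 38, 44 and 38 bp they were among the longest of the 704. IgG sites within 50 bp of them summed to 52, 43 and 148 tags. Over the whole gene the tags were 3216 with OLIG2 and 2463 with IgG, a ratio of 1.31.

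Agrn, which encodes the proteoglycan agrin, had a CDS site of 235 tags and 34 bp, but IgG sites within 50 bp of it summed to 486 tags against 405 with OLIG2. Noc2l, an inhibitor of histone acetylation, had a CDS site of 204 tags, with 264 OLIG2 and 50 IgG tags within 50 bp. Over the gene Noc2l held 1512 tags with OLIG2 and 1354 with IgG. The mitochondrial peroxidase gene Prdx3 had a CDS site of 152 tags. In Prpf8, a core protein of the spliceosome, the CDS site had 148 tags and in Dctn2, a dynactin subunit, 115. Besides Eif1ax and Agrn, the longest sites were those in Galntl6 (38 bp), Cdh13 (34 bp) and Adora1 (31 bp).

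The genes with the most sites were long annotations that cover other genes. Gm20388, annotated over 4435 kb of chromosome 8, held 94 of the 704 sites and Fgfr2, annotated over 2961 kb, held 26. The Gm20388 sites had Tag_Counts from 14 to 110 with a median of 27, and 92 of the 94 had an IgG site less than 50 bp away. On the listed transcripts 83 of the 94 were intronic, yet 93 lay in an exon of some gene on either strand. Among those exons were 11 sites in Nup133, a nuclear pore protein, 7 in Ankrd11, 6 in Zc3h18 and 6 in Taf5l. All 26 Fgfr2 sites were intronic for Fgfr2, a growth factor receptor, and 25 lay in exons of other genes, 7 of them in Abraxas2, 5 in Acadsb and 4 in Zranb1. These sites do not measure Gm20388 or Fgfr2 RNA as distinct from the genes inside them. Gene tags were 156599 with OLIG2 and 171396 with IgG for Gm20388, and 60724 and 60261 for Fgfr2. These genes also held the most wide IgG-only sites, 55 in Gm20388 and 18 in Fgfr2.

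Pik3r1, a regulatory subunit of phosphoinositide 3-kinase, came next with 13 sites, 11 in the 3′ UTR and 2 in the CDS. Their Tag_Counts ran from 21 to 54. This gene had 4283 tags with OLIG2 and 2863 with IgG, a ratio of 1.5, and 1 wide IgG-only site of 29 tags. Ankrd11, an ankyrin repeat protein gene, had 10 sites of 22 to 63 tags, 8 of them in the 3′ UTR, with gene tags of 4675 and 5008. This gene also held 6 wide IgG-only sites. It lies on the strand opposite Gm20388, and their tags cannot be separated.

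By transcript part the wide OLIG2-only sites were mostly in exons. With the 3′ UTR taken first where transcripts disagreed, 259 of 704 were in a 3′ UTR (36.8%, 33.2 to 40.5), 262 in a CDS (37.2%, 33.6 to 40.9), 14 in a 5′ UTR, 9 in a noncoding exon and 160 in an intron (22.7%, 19.7 to 26). The wide IgG-only sites gave 34.3% for the 3′ UTR (29.6 to 39.3), 34.3% for the CDS and 29.1% for introns (24.6 to 33.9). Wide OLIG2 sites with an IgG site gave 26.7% for the 3′ UTR (25.2 to 28.2). The intervals for the 3′ UTR overlapped between the OLIG2-only and the IgG-only set, and they cover counting error only. This depended on the setting. Of the 45 OLIG2-only sites at 50 bp or more from an IgG site, 20 were in a 3′ UTR (44.4%, 29.6 to 60.0), 7 of them on Olig2, against 1 of 19 IgG-only sites (5.26%, 0.133 to 26). Outside Olig2 it was 13 of 36 (36.1%, 20.8 to 53.8). With RPKM above 1 the order turned round, at 42.5% of 240 OLIG2-only against 45.8% of 131 IgG-only sites.

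Nearly all intronic calls fell in an exon of another transcript. Of the 160, 109 were in Gm20388 or Fgfr2, and 157 fell in an exon of some GENCODE transcript on either strand. With every such transcript considered, 51.6% of the wide OLIG2-only sites were in a 3′ UTR, 42.8% in a CDS and 3 sites (0.426%) in an intron. For the wide IgG-only sites these were 52.2%, and 16 sites (4.16%) in an intron.

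**Figure D5:**
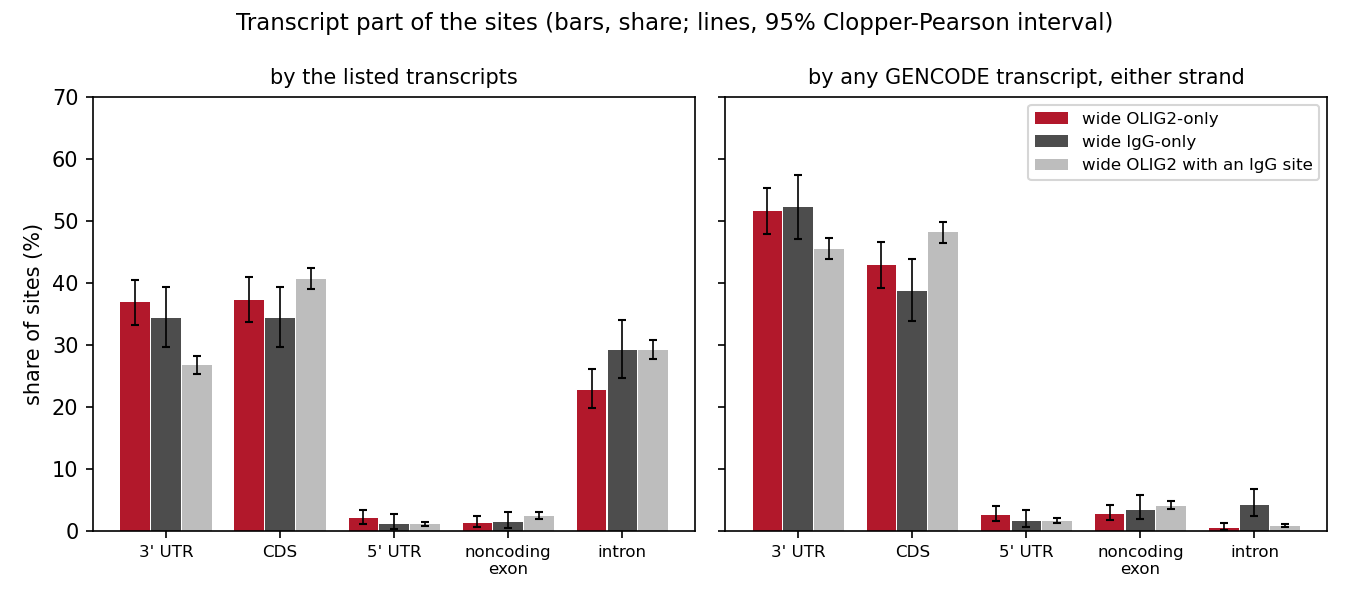
Share of sites in each transcript part (vertical, in percent, from 0) with 95% Clopper-Pearson intervals for 3 sets of sites, by the listed transcripts and by any GENCODE transcript on either strand. Introns make up 22.7% of the wide OLIG2-only sites by the first reading and 0.426% by the second.

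Of the 11 genes on the study's short list of OLIG2 targets, which was chosen on these samples and is no independent evidence, 7 held a wide OLIG2-only site, where 35.1% of all genes in the OLIG2 list did. Olig2 had 10, Mib2 and Ube2j2 had 4 each, Rsrc2 had 3, Rae1 had 2, and Noc2l and 1110059G10Rik had 1 each. The Rsrc2 sites at chr5:123740807-123740823 and chr5:123740810-123740823 overlap and are not separate places. Mib2 and Ube2j2 encode ubiquitin ligase and conjugating enzymes. Gene tags of Mib2 were 1842 with OLIG2 and 1269 with IgG, a ratio of 1.45, and those of Ube2j2 were 2110 and 1413, a ratio of 1.49. Rae1, an mRNA export factor, had a ratio of 1.30, and Rsrc2 one of 0.876. Acoxl, Mrpl20, Mtus2 and Rfc3 held none, with 7, 1781, 15 and 1306 OLIG2 tags. Wide IgG-only sites were also found on this list, 2 in Mib2 and 1 each in Ube2j2, Noc2l and Rfc3.

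Lists of genes drawn up by symbol or symbol pattern met few of the sites, because few of their genes were listed at all. They do not cover a function: Prpf8 and Dctn2, described above, are on none of them. Of 241 names on the RNA binding and splicing list, 6 were listed and 3 held wide OLIG2-only sites, beside 35.1% of all listed genes. A wide IgG-only site was held by 3 of the 6, and by 173 of the 618 genes of the IgG list. Those with OLIG2-only sites were the helicase gene Dhx30 with 8 sites of 22 to 54 tags, Eif1ax with 3 and the ribonucleoprotein gene Hnrnpr with 2. Dhx30 had 4267 tags with OLIG2 and 2801 with IgG, a ratio of 1.52. Of 112 names on the cytoskeleton list 2 were listed and both held sites. These were the dynein heavy chain gene Dync1h1 with 4 and the kinesin gene Kif4 with 1, at gene ratios of 0.767 and 0.971. Of the 111 names on the chromatin list only Setd3, better known as an actin histidine methyltransferase, was in the site lists, with 1 wide OLIG2-only site of 42 tags. That list does not hold Noc2l or Ankrd11, described above. The name pattern for 394 ribosomal protein genes and pseudogenes met Rps6ka5, with no such site, and Rps6kc1, with 2, which are kinase genes and not ribosomal proteins. No gene was listed of 110 histone genes, 37 mitochondrial genes or 25 nuclear long noncoding RNAs, and 1 of 1362 small structural RNA names was listed, the miRNA host gene Mir99ahg, with no wide OLIG2-only site.

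Markers of cell types gave little more. Mbp, the myelin basic protein gene, had 1063 tags with OLIG2 and 3030 with IgG, a ratio of 0.351, and no wide OLIG2-only site. Rbfox3, the only 1 of 7 neuronal markers listed, had 270 and 605 tags and none either. Of 6 astrocyte markers only the glutamate transporter gene Slc1a2 was listed. It had 3 wide OLIG2-only sites, 1 wide IgG-only site and gene tags of 2412 and 2741. Flt1, the only 1 of 4 endothelial markers listed, had 4 and 7 tags in 1 short site of each list. It had no wide OLIG2-only site, and no microglial marker of 6 was listed. The part of other cell types in these sites was not tested.

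Some sites lay in sequence with copies elsewhere in the genome. The 30-base window around the site had more than 1 exact match for 65 of 704 (9.23%, 7.20 to 11.6), against 40 of 385 wide IgG-only sites (10.4%, 7.53 to 13.9). The Galntl6 stretch shown above had 10928 exact matches on both strands. All 7 Galntl6 sites fell in Gm26905 exons inside a Galntl6 intron, and reads of such a stretch cannot be assigned to Galntl6. The 3 longest Olig2 stretches each had 1 match, their own place.

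The share of sites with an E-box had overlapping intervals in the sets compared. In windows of 30 bases CANNTG, which reads the same on both strands, was found at 114 of 704 sites (16.2%, 13.5 to 19.1), at 14.0% of the wide IgG-only sites (10.7 to 17.9) and at 14.2% of all OLIG2 sites. The AU-rich element core ATTTA, on the transcript strand, was at 6 sites (0.852%, 0.313 to 1.85). The wide IgG-only sites gave 1.04% (0.284 to 2.64) and wide OLIG2 sites with an IgG site 1.45% (1.08 to 1.91). All OLIG2 sites, which include the wide ones, gave 2.40% (2.26 to 2.54), and all IgG sites 2.39% (2.24 to 2.55). In both libraries the share was thus higher over all sites than in the wide ones. GGGG was at 6.96%, against 9.09% of the wide IgG-only and 7.30% of all OLIG2 sites. In the same order AAAAAA was at 0.568%, against 0.779% and 0.948%, and TTTTTT at 0.568%, against 1.56% and 0.981%. TGTANATA, the Pumilio element, was at 1 site (0.142%), against 0% and 0.264%. A match is a description of the letters only. The GC content of the sites had a median of 50% in both antibody-only sets.

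Peaks of the ChIP-Seq libraries of the same study, 1 library each, were set beside the sites. The start of the gene had an H3K4me3 peak in NSCs within 2 kb for 196 of the 215 genes with a wide OLIG2-only site (91.2%), against 301 of the 398 other genes of the OLIG2 list (75.6%). H3K4me3 marks active promoters. The genes with such a site also held more tags, at a median of 1387 in the OLIG2 list against 122 in the other genes, and the part of this in the share was not tested. H3K27me3, a mark of repressed genes, was there in NSCs at 9 (4.19%) and 37 (9.30%). In oligodendrocyte precursor cells (OPCs) the shares were 89.3% and 74.4% for H3K4me3, and 9.77% and 13.3% for H3K27me3. In newly formed oligodendrocytes they were 56.7% and 47.0%, and 4.65% and 10.3%. The samples held no OLIG2 ChIP-Seq library of NSCs. The study reports OLIG2 peaks in those cells, with binding at the Olig2 promoter, and these could not be compared here. OLIG2 ChIP-Seq peaks at more than 5-fold enrichment overlapped 3 of the 681 places in OPCs and 1 in newly formed oligodendrocytes. They overlapped 1 of the 377 places of wide IgG-only sites in each cell type, and 4 and 3 of the 3268 places of wide OLIG2 sites with an IgG site. Of the 3, both Olig2 sites at chr16:91228369-91228378 and chr16:91228409-91228438 fell in 1 OPC peak in the 3′ UTR, chr16:91228282-91228511, with a fold enrichment of 12.6. The third lay in Atad3a, where a peak of 6.25-fold also overlapped a wide IgG-only site.

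The comparison set was led by genes without a counterpart in scale to Olig2. Its highest site was the 5′ UTR site of Pcbp2, a poly(C)-binding protein gene, at 334 tags, with 6 OLIG2 tags within 50 bp. Next were sites of 245 and 233 tags in Ccr9, in stretches with 8 and 10 exact matches in the genome. Itgb1, the integrin beta subunit, had a site of 148 tags in its 3′ UTR with 583 IgG and 621 OLIG2 tags within 50 bp. Gm38194 had a wide site of 114 tags in each list, 1 found with IgG only and 1 with OLIG2 only. Sites above 100 tags numbered 25 of 704 with OLIG2 only, 10 of them on Olig2, and 7 of 385 with IgG only. Among the wide OLIG2 sites with an IgG site they numbered 890 of 3375.

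The length limit itself divided sites of like Tag_Count. Among OLIG2-only sites of exactly 10 bp, 151 in number, the median was 24 tags, and among the 190 sites of 9 bp just outside it was 23. The highest just inside were the Olig2 sites of 1306, 847 and 695 tags. The highest just outside were 2 in Dhx30, with 64 and 61, and 1 in Agrn, with 58.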

How the data were processed

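RIP-Seq was analysed from 2 libraries, 1 with anti-OLIG2 and 1 with IgG, grouped by the antibody in the labels. The authors called sites per library with ASPeak at default settings on mm10 GENCODE transcripts, with NSC RNA-Seq setting the expected level of each transcript and IgG as the control library. The read mapper for RIP-Seq is not given in the sources used here; the submitters' processing notes name Bowtie2 and MACS2 for the series. Deposited Tag_Count and Maximum_Height are whole-number counts without normalization. The RPKM is the transcript's, deposited by the authors from NSC RNA-Seq, and each p-value is that of the authors' caller. For ChIP-Seq peaks the authors deposited a fold enrichment and a −log10 of the FDR, and peaks above 5-fold (OLIG2) or 3.5-fold (histones) at an FDR of 0.05 were used.

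Rows for several transcripts were reduced to unique sites by chromosome, start, end and strand, 101310 OLIG2 and 83195 IgG rows giving 45157 and 37248. Starts in the files count from 0 and are given here from 1. Length is end minus start in the files. An overlap was 1 shared base on the same strand. Parts came from the listed transcripts in GENCODE M21 (1956 of 1961 and 1966 of 1971 matched), in the order 3′ UTR, CDS, 5′ UTR, noncoding exon, intron. Sequence came from RefSeq GRCm38.p6. Sites on chromosome 18 were counted in all shares and their sequences not printed, and the sequence of the Noc2l site is not reported here. Motifs were searched in 30-base windows around the site's weighted centre. Shares carry exact Clopper-Pearson 95% intervals, and intervals for medians rest on order statistics, both for counting error only; tags are not known to be independent molecules. With 1 library per antibody no test was run, and the sequencing depth is unknown. The overlap functions were tested on simulated sites. Python 3.11.15, pandas 2.3.3, NumPy 2.4.6, SciPy 1.17.1 and Matplotlib 3.10.9 were used.

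The sites, gene lists and motifs were chosen with earlier results of these data known. Named were the 10 sites with the most tags, the 5 longest, the 5 genes with the most sites, those in listed genes or the study's short target list, 3 sites on each side of the length limit and the 5 top IgG-only sites. Alternatives changed the minimum length, the strand and gap of an overlap, merging, Tag_Count, p-value, RPKM and the order of parts. Assignment to any transcript, removal of Olig2 and 1 site per place were added after seeing the data. The genes named for sites 50 bp or more from an IgG site were also picked after seeing the data.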

Additional observations from a re-analysis of the deposited data

How the results depend on the processing

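Of 220 alternative values, 44 came from a Tag_Count of at least 10 or a p-value below 0.01, which removed no site and say nothing about stability. Of the other 176, 113 stayed within the 95% interval of the reported share or median, or within 1.5 times the reported count, and 24 of the rest concerned 5′ UTRs, noncoding exons and the rarer motifs. The remaining 39 follow, and why they moved beyond the change in the sites counted was not tested. With a minimum of 5 bp there were 3452 OLIG2-only sites in 366 genes (median 17 tags) and 2268 IgG-only sites (22 tags). With a minimum of 20 bp there were 59 in 38 genes (median 53 tags), of which 10.2% held CANNTG, and 24 IgG-only sites (48 tags), of which 20.8% were in a 3′ UTR and 37.5% in an intron. When a site of the other list within 50 bp also counted as an overlap, 45 OLIG2-only sites in 31 genes were left, with 44.4% in a 3′ UTR and 15.6% in an intron, and 19 IgG-only sites, with 5.26% in a 3′ UTR, 42.1% in a CDS and 42.1% in an intron. With RPKM above 1 there were 240 OLIG2-only sites in 81 genes (median 32 tags; 42.5% in a 3′ UTR, 43.8% in a CDS, 6.67% in an intron) and 131 IgG-only sites (39 tags; 45.8%, 42.7% and 9.92%). With the CDS taken before the UTRs, 30.1% of OLIG2-only sites were in a 3′ UTR and 43.9% in a CDS. By any GENCODE transcript on either strand, an alternative chosen after seeing the data, 51.6% of OLIG2-only sites were in a 3′ UTR, 42.8% in a CDS and 0.426% in an intron, and 52.2% of IgG-only sites were in a 3′ UTR and 4.16% in an intron. Overlap on either strand moved no value. Leaving out Olig2, run for the OLIG2-only sites, moved none of theirs, and 1 site per place, run for the numbers of sites and the median Tag_Counts, moved none of those. Merging sites moved the share of OLIG2-only sites in noncoding exons and no other value. No paired analysis was possible because each antibody had 1 library and the result comes from no test. The effect of sequencing depth on low sites was not tested. At 28 tags the absence of a listed site in the other library is not the absence of its tags.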

Other observations

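The listed genes were placed unevenly along the chromosomes. Of the 649 genes in either RIP list, 308 (47.5%, 95% Clopper-Pearson interval 43.6 to 51.4) ended within the last 5 Mb of their chromosome in GRCm38, as did 1153 of 21938 GENCODE protein-coding genes (5.26%, 4.96 to 5.56). Of the 215 genes with a wide OLIG2-only site, 97 (45.1%, 38.3 to 52.0) did. By sites, 31.2% of the wide OLIG2-only sites lay there, against 34.0% of the wide IgG-only sites and 34.7% of all OLIG2 sites. Chromosome 8, which carries Gm20388, held 136 of the 704 wide OLIG2-only sites (19.3%) and 81 of the 385 wide IgG-only sites (21%).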
